A study of Mus musculus with 4 samples.

Results

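The genes described are 10 of the 47633 genes in the table of mouse embryonic stem (ES) cells and cells derived from them: Acta2, Actg2, Tagln, Tagln2, Myl9, Cnn1, Cnn2, Tpm1, Tpm2 and Srf. The first 9 encode proteins of the contractile apparatus of smooth muscle or close relatives of them, and Srf encodes the transcription factor that controls many such genes. They were picked by name, because Acta2, Tagln and Myl9 had been seen to move in opposite directions in the 2 derived libraries. Differences of these 10 genes from ES cells are therefore given as descriptions, without a test. All 4 libraries came from total RNA of the 129S2/SvPas strain. The ES cells (2 libraries) were cultured with leukaemia inhibitory factor (LIF), a cytokine that holds them undifferentiated, on mitomycin C-treated C57/BL6 embryonic fibroblasts as feeders. One further library came from cells kept 2 days without LIF, called here the LIF-withdrawal library, and another from cells kept 5 days without it. The latter is called here the EB library, after its label, embryoid body, which names a free-floating aggregate in which ES cells differentiate. Whether feeder cells were still present in the derived cultures, or removed before RNA was taken, is not given in the sources used here.

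Smooth muscle shortens when myosin filaments pull on thin filaments built of actin. Acta2 and Actg2 encode the vascular and enteric smooth muscle actins, tropomyosins (Tpm1, Tpm2) lie along the filament, and calponins (Cnn1, Cnn2) and transgelins (Tagln, Tagln2) bind its surface. Myl9 encodes a regulatory light chain of myosin, whose phosphorylation switches contraction on. Serum response factor, the product of Srf, binds the CArG box in promoters of contractile genes together with cofactors of the myocardin family, and with ternary complex factors at growth-factor-induced genes such as Fos. Several of these genes are not restricted to muscle: cultured fibroblasts build the same proteins into stress fibres.

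Levels are FPKM, fragments scaled by transcript length and library total, as deposited. Depth was estimated from the smallest recurring FPKM steps at 18.1 to 31.5 M fragments per library, with the LIF-withdrawal library the lowest. The 10 most abundant genes held 44.7% of the FPKM sum in that library and 9.8% to 17.4% in the others, and median-of-ratios factors lay between 0.977 and 1.02. Summed over 8 ES markers (the most abundant being Dppa5a and Pou5f1), the level was 2208 and 2215 FPKM in the ES libraries, 2317 after LIF withdrawal and 2734 in the EB library. Singly, 5 of the 8 were below both ES libraries after LIF withdrawal and 3 in the EB library, where 5 were above both. Nothing in the labels says that the ES libraries were separate cultures, so their spread may be technical. Both derived libraries lack a replicate, and both are set against the same ES pair.

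Promoter sequence is shown first for 4 of the 5 members whose window holds a match to the CArG box, since that is the element through which Srf acts. RefSeq promoters on GRCm38.p6, the assembly of mm10, matched 8 of the 10 genes. Tagln and Actg2 had no entry. The 250 bases before the RefSeq start were searched for the CArG box, exact or with at most 1 mismatch, and for the TEAD motif CATTCC on both strands. That start can differ from the GENCODE gene model, which gave the gene positions stated below. Most of the Acta2 window lies inside its GENCODE gene, and those of Myl9, Cnn2 and Srf overlap theirs. An exact CArG box stood in the windows of Myl9, Cnn2 and Srf, 3 of 8, against 1.47% of the 32851 promoters in the table. With 1 mismatch allowed, Acta2 and Tpm1 joined them, making 5 of 8 against 18.6% of all. CATTCC was found in Acta2, Tagln2 and Tpm1, 3 of 8 against 12.6% of all. In the 4 sequences below, 5′ to 3′ on the strand of the gene, capitals mark CArG boxes with at most 1 mismatch:
Acta2: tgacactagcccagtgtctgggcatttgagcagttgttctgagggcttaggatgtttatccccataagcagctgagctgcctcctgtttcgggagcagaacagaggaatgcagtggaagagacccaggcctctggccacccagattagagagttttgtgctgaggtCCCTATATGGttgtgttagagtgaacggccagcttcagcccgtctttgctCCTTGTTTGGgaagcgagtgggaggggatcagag
Myl9: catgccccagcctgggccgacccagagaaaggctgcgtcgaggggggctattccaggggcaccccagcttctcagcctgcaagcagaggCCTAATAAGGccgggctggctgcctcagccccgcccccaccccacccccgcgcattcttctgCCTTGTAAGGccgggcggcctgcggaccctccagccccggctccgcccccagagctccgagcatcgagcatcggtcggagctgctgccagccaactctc
Cnn2: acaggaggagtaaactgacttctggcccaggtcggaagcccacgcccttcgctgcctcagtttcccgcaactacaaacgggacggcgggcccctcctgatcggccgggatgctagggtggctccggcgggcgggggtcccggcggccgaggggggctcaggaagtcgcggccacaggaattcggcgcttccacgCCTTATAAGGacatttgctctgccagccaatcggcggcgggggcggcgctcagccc
Srf: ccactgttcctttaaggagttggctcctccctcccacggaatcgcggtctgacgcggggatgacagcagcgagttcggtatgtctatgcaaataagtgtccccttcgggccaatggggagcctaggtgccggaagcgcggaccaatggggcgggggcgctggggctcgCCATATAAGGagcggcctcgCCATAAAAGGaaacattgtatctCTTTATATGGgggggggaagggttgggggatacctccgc
The Acta2 window (chr19:34255374-34255623, minus strand) holds CCCTATATGG and CCTTGTTTGG, starting 84 and 34 bases before the start, each with 1 mismatch. That of Myl9 (chr2:156775214-156775463, plus strand) holds the exact CCTAATAAGG 161 bases before it and CCTTGTAAGG, with 1 mismatch, at 99. Cnn2 (chr10:79988350-79988599, plus strand) carries a single exact box, CCTTATAAGG, 56 bases before its start. Srf (chr17:46556163-46556412, minus strand) has 2 exact boxes and 1 with a mismatch within 82 bases of the start. A match describes letters only, and a window without one, as for Cnn1 and Tpm2, says nothing about binding elsewhere.

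**Figure D1:**
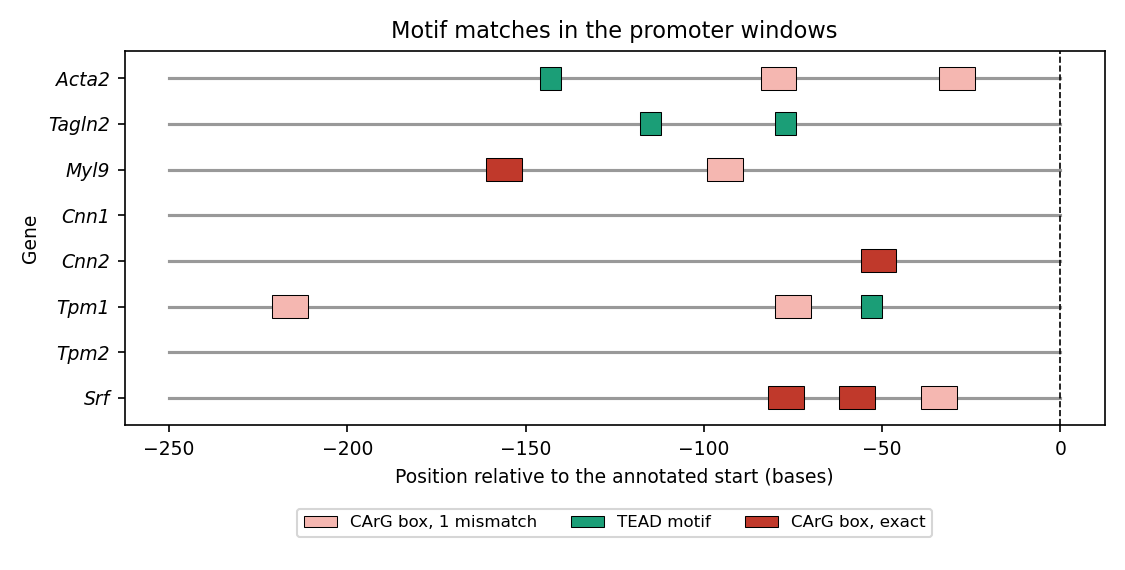
Positions of motif matches in the 250 bases before the RefSeq start of the 8 members with a RefSeq promoter. The x axis is the distance from that start in bases and each box spans 1 match. Exact CArG boxes lie in Myl9, Cnn2 and Srf, and Acta2 and Tpm1 each hold 2 boxes with 1 mismatch.

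Acta2, the gene of smooth muscle alpha-actin, was at 82.8 FPKM in ES 1 and 88.7 in ES 2. It was at 234 FPKM in the LIF-withdrawal library and at 1.06 in the EB library. The ES libraries lay close together, with the first derived library 2.72 times above their mean of 85.7 ± 4.20 (SD, n = 2) and the second 81.1 times below it. On the log2(FPKM + 1) scale, used for all differences here, these are 1.44 and -5.40. Between the derived libraries alone the ratio was 221. The EB library still held an estimated 61.4 Acta2 fragments, above the floor of 3 fragments, which for this gene corresponds to 0.0517 FPKM. Floors and intervals cover counting error only. The gene (ENSMUSG00000035783.8) lies on chromosome 19, 34241090 to 34255590, minus strand in mm10, with no annotated gene on the opposite strand, and 0.326% of the 50-base words of its transcripts occur in another gene.

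Actg2, the enteric smooth muscle actin, was at 1.96 and 3.16 FPKM in ES 1 and ES 2, 2.76 at 2 days without LIF and 0.0333 in the EB library. The LIF-withdrawal library fell between the ES libraries, so no direction can be read there. In the EB library the level corresponds to about 1 fragment, under the 3-fragment floor of 0.0729 FPKM, against an estimated 226 in the ES pair. Counted as 1 fragment, the ratio to ES was 0.00969, with an exact 95% counting interval of 0.000244 to 0.0545.

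Tagln encodes transgelin (SM22), an actin-bundling protein used as an early smooth muscle marker. Its level was 52.4 FPKM in ES 1, 56.6 in ES 2, 152 in the LIF-withdrawal library and 1.26 in the EB library. Like Acta2 it stood above both ES libraries in the one and far below both in the other, with ratios to the ES mean of 2.78 and 0.0231 and log2 differences of 1.46 and -4.62. The gene (chromosome 9, 45929619 to 45936058, minus strand) overlaps Pcsk7 and Gm48529 on the opposite strand, which cover 67.9% of its exon length, and the sources used here do not say whether strand was used in counting. Pcsk7, a protease gene, was at 3.72, 4.10, 3.72 and 4.41 FPKM in ES 1, ES 2, LIF withdrawal and the EB library, a far narrower range than that of Tagln. Of the 1983 distinct 50-base words in Tagln transcripts 58.3% occur in another gene on either strand, 1098 of them in Gm48529. Gm48529 matched none of the genes with deposited FPKM, so its level is not known.

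Tagln2, the transgelin of non-muscle cells, was at 55.3 and 52.7 FPKM in the ES libraries, 59.3 after LIF withdrawal and 38.6 in the EB library. In ES cells it was thus at about the level of Tagln (54.0 ± 1.87 against 54.5 ± 2.93 FPKM, SD, n = 2), with both values per kilobase. Its differences from ES were small beside those of Tagln, 0.13 and -0.47. Its window holds CATTCC on 2 occasions and no CArG box match.

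Myl9, the regulatory myosin light chain of smooth muscle and stress fibres, was at 10.8 FPKM in ES 1, 9.98 in ES 2, 23.4 at 2 days without LIF and 0.925 in the EB library. Again the first derived library was above and the second below both ES libraries. Ratios to the ES mean were 2.26 and 0.0892, and log2 differences 1.11 and -2.56. The low value rests on an estimated 28.4 fragments.

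Cnn1, basic calponin, is a marker of differentiated smooth muscle. It was low throughout, at 2.89 and 2.86 FPKM in ES cells, 4.76 at 2 days without LIF and 1.44 in the EB library, with log2 differences of 0.57 and -0.67. Cnn2, the calponin of many non-muscle cells, was at 27.8, 26.9, 28.4 and 11.1 FPKM in the same order. After LIF withdrawal it lay 0.05 from the ES mean, and in the EB library it lay at -1.22. As ratios to the ES mean the 2 calponins were at 0.501 and 0.408 in the latter, and at 1.66 and 1.04 after LIF withdrawal.

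Tpm1, the most abundant tropomyosin gene of the members, was at 111.9 and 109.6 FPKM in the ES libraries, 149.5 after LIF withdrawal and 46.8 in the EB library. Tpm2, which encodes beta-tropomyosin, was at 14.5, 16.4, 21.2 and 7.31 FPKM. Both were modestly above the ES pair without LIF for 2 days (0.43 and 0.44) and below it in the EB library (-1.23 and -0.99). With 21 annotated transcripts in Tpm1 and 6 in Tpm2, a gene-level FPKM cannot separate muscle from non-muscle isoforms.

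Srf was the least variable member. Its level was 9.21 FPKM in ES 1, 9.45 in ES 2, 8.35 at 2 days without LIF and 6.66 in the EB library. Both derived values lay below both ES libraries, by -0.14 and -0.43 on the log2 scale. Gm26904, a non-coding gene on the opposite strand with no exon in common, was at 0.194, 0.252, 3.76 and 0.115 FPKM.

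**Figure D2:**
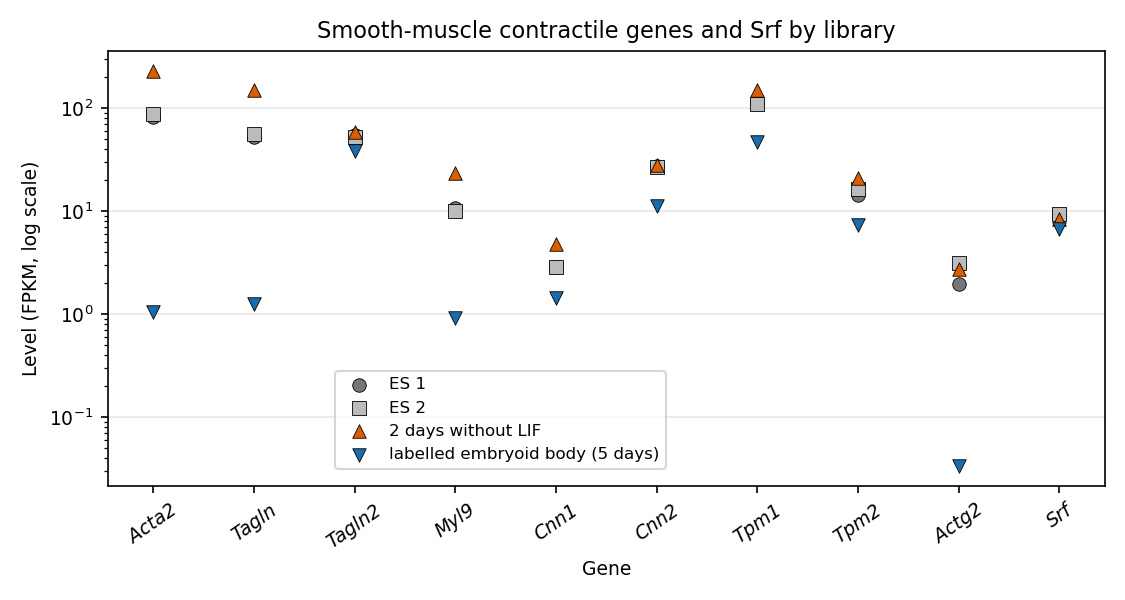
Level of each of the 10 members (FPKM, log scale on the y axis) in each library; each point is 1 library. Acta2, Tagln and Myl9 are at 23.4 to 234 FPKM after LIF withdrawal and at 0.925 to 1.26 FPKM in the EB library, while Srf stays between 6.66 and 9.45 FPKM.

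Taken as a list, 8 of the 10 members were above both ES libraries after LIF withdrawal, where 48.4% of all 15676 genes that reached 1 FPKM in any library were. In the EB library 10 of 10 were below both, against 42.9% of all. Members at least 2-fold above both ES libraries after LIF withdrawal were Acta2, Tagln and Myl9, 3 of 10 with a background of 8.84%, and 0 of 10 were at least 2-fold lower (0.836% of all genes). At least 2-fold lower in the EB library were Acta2, Tagln, Myl9, Cnn2, Tpm1 and Actg2, 6 of 10 where the background was 0.734%. None was at least 2-fold higher there (1.63% of all). Cnn2 was the closest inside that limit, at 0.436 of the nearer ES library on FPKM + 1, and Tpm2 the closest outside, at 0.536. The members' median difference was 0.43 after LIF withdrawal (range -0.14 to 1.46), beside 0.04 over all genes, and -1.22 in the EB library (range -5.40 to -0.43), beside -0.01. With a pseudocount of 0.1 the differences in the EB library were larger for the low members, at -4.28 for Actg2 (-1.76 with 1), -6.21 for Acta2, -5.33 for Tagln and -3.35 for Myl9. These counts include the 3 genes whose values prompted the choice, so nothing is read from their distance to the background.

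Acta2, Tagln and Myl9 were at least 2-fold higher in the LIF-withdrawal library and at least 2-fold lower in the EB library, a combination met by 17 of 15676 genes (0.108%). That opposite movement prompted the choice of the members, so nothing is read from the share. Between the derived libraries, 8 of 10 members were at least 2-fold lower in the EB library than after LIF withdrawal, on FPKM + 1 (10.1% of all genes). The 2 outside were Tagln2 and Srf, with log2 differences of -0.61 and -0.29.

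**Figure D3:**
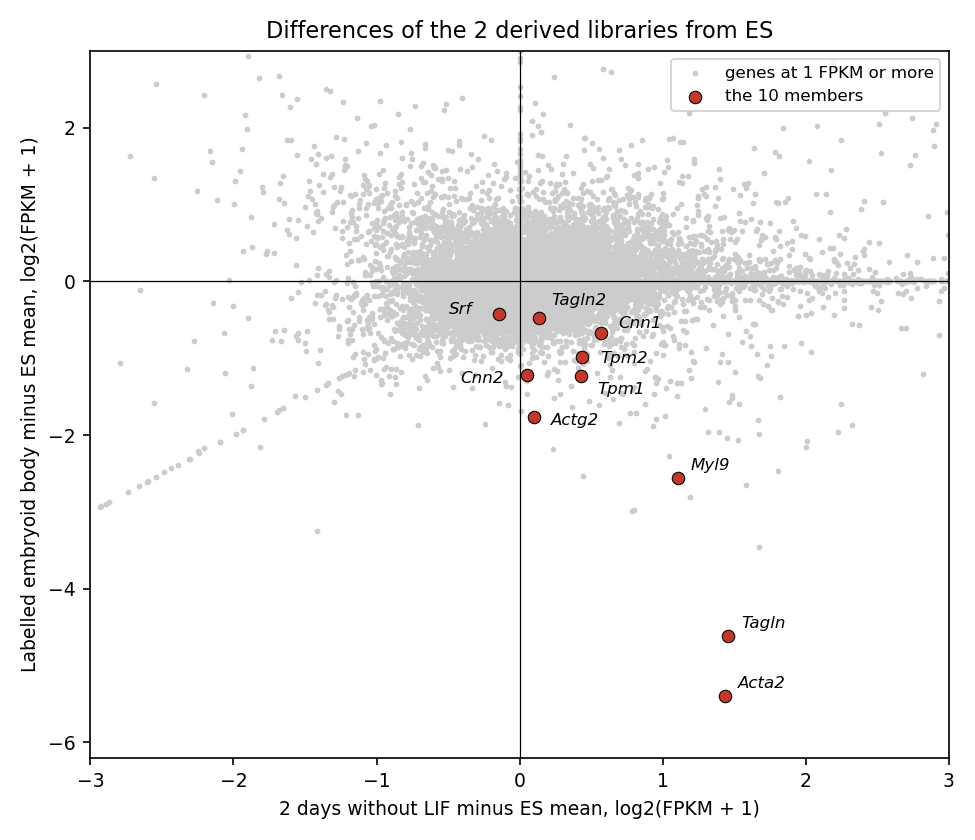
Difference from the ES mean on the log2(FPKM + 1) scale for the LIF-withdrawal library (x axis) and the EB library (y axis); red points are the 10 members, grey points other genes at 1 FPKM or more, and genes outside the axes are not drawn. Both axes use the same ES pair; Acta2 and Tagln lie at 1.44 and -5.40 and at 1.46 and -4.62.

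Because FPKM is per length, the genes of a family can be added within a library, which gives a share that does not depend on scaling between libraries. Acta2 made up 1.81% and 1.94% of the summed level of Acta2, Actg2 and the cytoplasmic actin genes Actb and Actg1 in the ES libraries, 8.20% after LIF withdrawal and 0.0325% in the EB library. The family sum itself was lower in both derived libraries, at 2849 and 3257 FPKM against 4564 and 4571. Tagln was 48.2% and 51.4% of the transgelins in ES cells, 71.2% at 2 days without LIF and 3.03% in the EB library. That family's sum went from 109 and 110 FPKM in ES cells to 213 and 41.5.

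Myl9 supplied 5.00% and 4.62% of the light-chain genes Myl9, Myl12a and Myl12b in ES cells, 11.1% at 2 days without LIF and 0.582% in the EB library. The last 2 encode the non-muscle regulatory light chains. Cnn1 was a small part of the calponins in every library (1.47% to 3.83%), and Cnn2 was 20.5%, 20.3%, 22.8% and 11.4% in the order ES 1, ES 2, LIF withdrawal and EB library. Tpm1 was 36.1% and 34.8% of the 4 tropomyosin genes in ES cells, 37.9% at 2 days without LIF and 23.7% in the EB library. For Tpm2 the same shares were 4.68%, 5.22%, 5.39% and 3.71%.

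**Figure D4:**
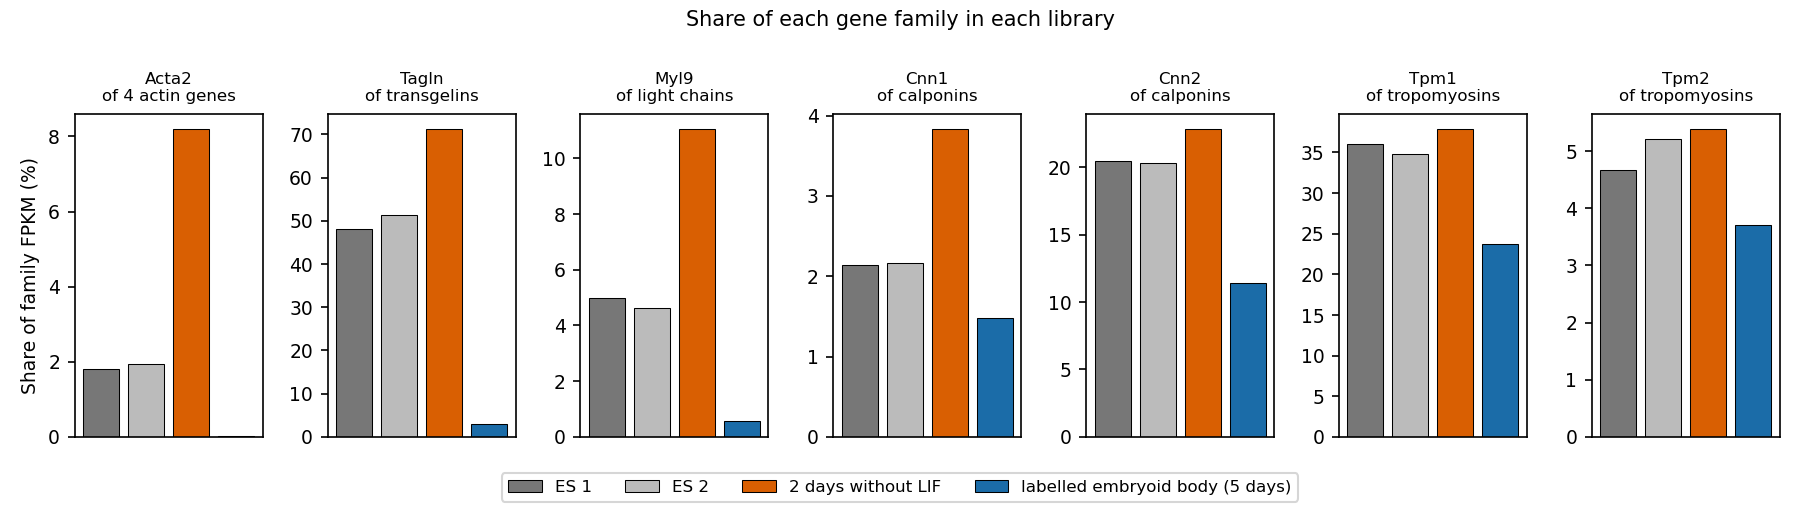
Share of each member in the summed FPKM of its gene family (y axes in percent, each starting at 0 and with its own range), 1 bar per library. Acta2 is 8.20% of the 4 actin genes after LIF withdrawal and 0.0325% in the EB library, and Tagln 71.2% and 3.03% of the transgelins.

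The other genes of this system were tested with limma over all 15676 genes, a call being an adjusted p under 0.05 and a log2 change of at least 1. After LIF withdrawal 7.32% of all genes were called higher and 0.357% lower. In the EB library 0.396% were called higher and 0 lower, with 2381 lower at an unadjusted p under 0.05, so the absence of a call there carries little information. A narrower fit used the 6808 strand-clear genes, protein-coding or long non-coding genes that have at least 1000 nt of exons and lie outside every gene on the opposite strand. There limma called 2.44% higher and 0.602% lower after LIF withdrawal, and 1.53% and 0.778% in the EB library. Of 96 listed genes 85 passed the filter and 42 were strand-clear. Over all genes 7 rose and 2 fell after LIF withdrawal, with 44 at unadjusted p under 0.05. None was called in the EB library, with 45 at unadjusted p under 0.05, but 4 fell there in the strand-clear fit, 5 with no filter and 1 with a pseudocount of 0.1.

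Cytoskeletal and matricellular targets of Srf and its MRTF cofactors, a list of 18 that all passed the filter, held 4 rises and 0 falls after LIF withdrawal. Thrombospondin 1 (Thbs1), a matricellular glycoprotein, rose from 70.4 ± 3.01 FPKM (SD, n = 2) to 248 (log2 change 1.80, SE 0.06, limma adjusted p = 0.028). Filip1l, which encodes a filamin A-interacting protein, rose from 3.79 ± 0.0248 to 14.8 FPKM. Thbs1 and Filip1l lie opposite other genes and were not in the strand-clear fit. Ankrd1, a cardiac ankyrin-repeat gene also induced by YAP and TEAD, rose from 4.17 ± 0.0916 to 9.64, and the focal adhesion gene Tgfb1i1 (Hic-5) from 1.98 ± 0.0459 to 5.28 FPKM. With a pseudocount of 0.1 the calls of Ankrd1 and Tgfb1i1 ended (limma adjusted p = 0.0806 and 0.0742), and that of Ankrd1 also with median-of-ratios factors (0.0528). Ankrd1 and Tgfb1i1 were also called in the strand-clear fit, together with the matricellular gene Ccn1, at 9.61 ± 1.25 and 27.1 FPKM (adjusted p = 0.0238 there and 0.0873 over all genes).

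Of these 18 targets 15 were below both ES libraries and 3 above them in the EB library, where 42.9% of all genes were below both. Ankrd1 fell to 0.0682 FPKM in the strand-clear fit (log2 change -2.27, limma adjusted p = 0.0161 there and 0.124 over all genes). Thbs1 was at 11.9 FPKM, Filip1l at 1.24 and Ccn2, the connective tissue growth factor gene, at 21.1 against 51.4 ± 0.441. These 3 lie opposite other genes and were not in the strand-clear fit, and the fit over all genes called no gene lower. Their lack of a call therefore does not set them apart from Ankrd1. The list's median difference was 0.34 after LIF withdrawal and -0.58 in the EB library, against 0.04 and -0.01 over all genes. The list was chosen with earlier results of these data known, so nothing is read from that distance.

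Among 15 other smooth muscle genes 9 passed the filter, and the rest, Myh11 among them, stayed under 1 FPKM in every library. Myh11, the myosin heavy chain of differentiated smooth muscle, was at 0.171 and 0.170 FPKM in ES cells, 0.695 at 2 days without LIF and 0.126 in the EB library. Myocd, encoding myocardin itself and listed with the partners of Srf, was at 0.983, 0.263, 0.0318 and 0.0742 FPKM in the same order. Smooth muscle in the name of these genes thus refers to their known use, not to a cell type shown to be present. Cald1, caldesmon, rose after LIF withdrawal from 37.5 ± 1.41 to 84.7 FPKM (limma adjusted p = 0.0414), and the small heat shock protein gene Hspb6 from 1.25 ± 0.054 to 6.19 (adjusted p = 0.0258). The call of Cald1 ended with median-of-ratios factors (limma adjusted p = 0.0513) and that of Hspb6 with a pseudocount of 0.1 (0.0532). Both lie opposite other genes and were not in the strand-clear fit. Cald1 was at 20.6 and Hspb6 at 1.70 FPKM in the EB library, and 0 of 9 were called.

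Of 12 paralogues of the members tested, 0 were called over all genes in either comparison (6 and 7 at unadjusted p under 0.05). Actg1, cytoplasmic gamma-actin, was at 1766 ± 51.1 FPKM in ES cells, 732 at 2 days without LIF and 1081 in the EB library. It fell after LIF withdrawal in the strand-clear fit (log2 change -1.27, limma adjusted p = 0.0208 there and 0.068 over all genes). Tpm4, a cytoskeletal tropomyosin, was at 58.7 ± 1.48, 80.8 and 32.9 FPKM, and Acta1, skeletal actin, at 2.70 ± 0.251, 5.04 and 0.347.

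Genes that Srf controls through ternary complex factors went down in both derived libraries where they were called. Fos and Fosb, subunits of AP-1, fell after LIF withdrawal to 1.52 and 0.294 FPKM from 16.4 ± 0.902 and 5.50 ± 0.296 (limma adjusted p = 0.0249 and 0.0276), 2 of 6 tested. In the strand-clear fit both also fell in the EB library, to 7.31 and 1.95 FPKM (adjusted p = 0.028 for each, against 0.139 over all genes). Egr1, another growth-factor-induced gene, was at 9.73 ± 0.065, 11.2 and 14.4 FPKM in ES cells, LIF withdrawal and the EB library.

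Srf's own partners were not called in either comparison, 0 of 8 by limma, with 3 and 2 at unadjusted p under 0.05. The MRTF genes Mrtfa and Mrtfb, whose products enter the nucleus when actin polymerises, were at 11.6 ± 0.61 and 13.0 ± 2.00 FPKM in ES cells. They were at 12.7 and 16.7 after LIF withdrawal and at 12.8 and 15.1 in the EB library. Elk3, a ternary complex factor, was at 3.16 ± 0.579, 7.01 and 4.20 FPKM. Of 16 genes of the RhoA, ROCK and myosin phosphatase pathway, which governs light-chain phosphorylation, 0 were called in either comparison (7 and 7 at unadjusted p under 0.05). Cfl2, muscle cofilin, was at 11.6 ± 0.279, 11.5 and 6.26 FPKM, and Rhoc at 30.3 ± 0.444, 42.1 and 20.7. Of the 16 genes, 10 were above and 4 below both ES libraries after LIF withdrawal, and 7 above and 7 below in the EB library. Over all genes that passed the filter, 48.4% were above both after LIF withdrawal and 42.9% below both in the EB library.

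Transforming growth factor beta is a known inducer of Acta2 and Tagln. Genes of this pathway did not go one way. Of 16 listed ligands, receptors and targets, 9 were above and 4 below both ES libraries after LIF withdrawal. In the EB library 7 were above and 6 below. The shares of all genes that passed the filter were 48.4% above both after LIF withdrawal and 42.9% below both in the EB library. The ligand gene Tgfb1 was at 5.88 ± 0.78, 12.7 and 8.83 FPKM and the feedback inhibitor Smad7 at 20.9 ± 0.767, 40.2 and 32.0. These genes were higher than the ES mean in both derived libraries, without a call over all genes.

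**Figure D5:**
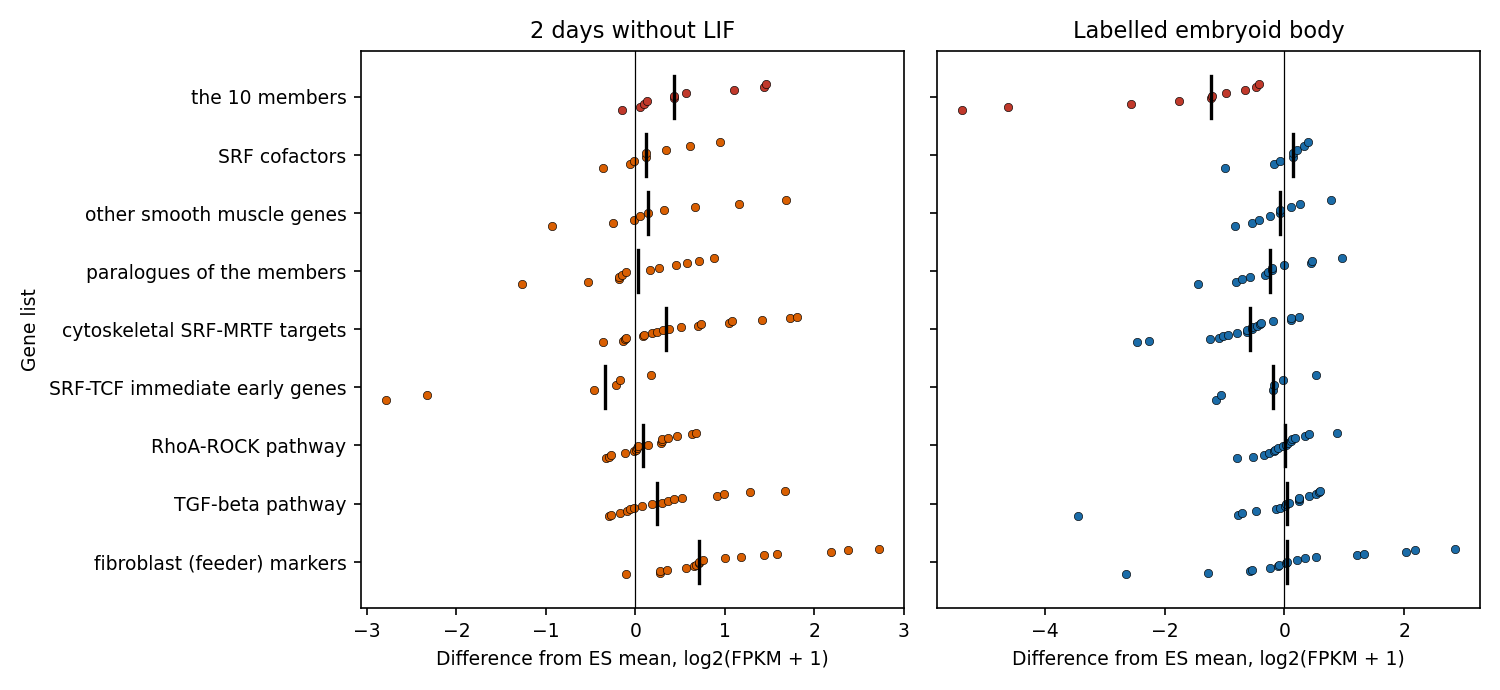
Difference from the ES mean on the log2(FPKM + 1) scale for the 10 members (red) and for genes of 8 lists that passed the filter, after LIF withdrawal (left) and in the EB library (right); each point is 1 gene and the black bar is the list's median. The members' median is 0.43 and -1.22, that of cytoskeletal SRF-MRTF targets 0.34 and -0.58, and that of fibroblast markers 0.71 and 0.04.

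Fibroblasts express these contractile genes and served as feeders, so their markers stand beside the members. Of 19 fibroblast markers 18 were above both ES libraries after LIF withdrawal, where 48.4% of all genes that passed the filter were. Their summed level was 341 FPKM against 167 and 168 in ES cells. Limma called 4 of 17 tested, all higher: Postn (periostin, 2.59 ± 0.286 to 22.7 FPKM), S100a4 (13.3 ± 1.08 to 73.2), the proteoglycan gene Dcn (0.679 ± 0.0224 to 6.68) and the collagen cross-linker Lox (12.9 ± 0.0629 to 40.7). The call of Postn ended with a pseudocount of 0.1 (limma adjusted p = 0.0559). Dcn passed the filter only through the derived libraries, so its call is not read as a result. Lox lies opposite another gene and was not in the strand-clear fit. Fap was listed at 0 in both ES libraries. The higher Acta2, Tagln and Myl9 of that library thus came with higher fibroblast markers, whose part in the result was not tested. Fewer cells of a type and less RNA per cell cannot be told apart in such bulk samples.

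In the EB library the fibroblast markers did not go one way. Their sum was 119 FPKM, with 10 of 19 above and 6 below both ES libraries (42.9% of all genes were below both). Their median difference was 0.04. Dcn was at 11.1 FPKM and the collagen VI genes Col6a1 and Col6a2 at 7.27 and 5.44, against 0.815 ± 0.0723 and 0.568 ± 0.128 in ES cells. All 3 were under 1 FPKM in ES cells and passed the filter only through a derived library. Their calls as higher in the strand-clear fit are therefore not read as a result. In that fit the intermediate filament gene Vim fell to 41.2 FPKM from 102 ± 0.636. Over all genes limma called 0, and 10 were at unadjusted p under 0.05. Lox was at 1.20 FPKM, S100a4 at 8.64 and Col1a1, a fibrillar collagen gene, at 4.47 against 6.71 and 7.29 in ES cells. Whether the lower members of the EB library go with these markers was not tested.

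Summed markers of other cell types differed less from ES than those of fibroblasts after LIF withdrawal. Pericyte markers summed to 28.6 and 32.4 FPKM in ES cells, 46.9 at 2 days without LIF and 48.1 in the EB library, mostly from Mcam and Notch3, with Rgs5, Abcc9 and Kcnj8 under 1 FPKM throughout. Striated muscle markers, led by Actn2 and Tnnt1, summed to between 7.59 and 8.80 FPKM in every library. Endothelial markers, led by Pecam1 and Tek, summed to 16.8 and 17.0 FPKM in ES cells, 20.0 at 2 days without LIF and 25.6 in the EB library. Extraembryonic endoderm markers, led by Sparc and Lamb1, summed to 89.1, 87.4, 138 and 70.6 FPKM. Macrophage markers summed to 14.1, 14.2, 19.1 and 18.0 FPKM in the same order, mostly from Cd68. Adgre1, Csf1r, Lyz2 and C1qa were listed at 0 in both ES libraries, and Csf1r and Lyz2 reached 1.61 and 1.36 FPKM after LIF withdrawal. Both passed the filter only through a derived library, so their limma calls are not read as a result.

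The genes whose pair of differences lay nearest that of the leading members were sought among 9036 genes that reached 5 FPKM in any library. Members, genes without a symbol, predicted or clone-type gene names and pseudogenes had been left out, so nearer genes may exist among those. The reference pair was the average of Acta2, Tagln and Myl9, 1.33 after LIF withdrawal and -4.19 in the EB library, and the measure was Euclidean distance over these 2 differences, which share the ES pair. The 8 nearest included, in order of distance, Rnu1b2, Prss23, Lox, Thbs1, Anxa3, Ankrd1 and Anxa1. Prss23, a serine protease gene, was at 12.1 and 11.9 FPKM in ES cells, 28.7 at 2 days without LIF and 0.852 in the EB library. The annexin genes Anxa3 and Anxa1, for calcium-dependent membrane-binding proteins, were at 19.0 and 20.7 and at 36.7 and 39.5 FPKM in ES cells. They went to 27.3 and 73.4 FPKM after LIF withdrawal and to 2.60 and 9.59 in the EB library. Rnu1b2, a small nuclear RNA gene with many copies, was at 60.6 FPKM in ES 1 and listed at 0 in ES 2, so its place rests on 1 library.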

How the data were processed

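Total RNA libraries of 4 mouse samples (2 ES, 1 LIF withdrawal, 1 labelled embryoid body) were measured by sequencing. The authors deposited FPKM, 1 value per gene and library. Trimmomatic 0.36, STAR and Cufflinks and build mm10 are named per the submitters' processing notes, without their roles, the annotation or the strand setting. Of 47633 identifiers 47219 matched GENCODE M21 (mm10), which gave symbols, positions and exon lengths. Differences are on log2(FPKM + 1). The 15676 genes that reached 1 FPKM in any library were fitted with limma 3.58.1 (R 4.3.3; trend; Benjamini-Hochberg). The ES pair gives its 1 residual degree of freedom, so a lone library is assumed to vary as ES cells do. Limma was tested on simulated data, with ES residuals redrawn among genes of similar level. There the fit over strand-clear genes recovered most of the planted changes and the fit over all genes recovered none. The fit over all genes did call genes in the real data, so the simulated setting differs and does not measure the power of that fit. A missing call over all genes is not read as no change. Depth came from the commonest low step of FPKM times exon length in single-transcript genes of at least 3000 nt. Promoters are RefSeq's. Members, lists and the strand-clear set were chosen with earlier results of these data known. Named genes were all members and, per list and comparison, up to 4 genes: called ones first, then the largest differences at 5 FPKM or more; other marker lists are given as sums with their leading genes. Genes named beyond that rule (Ccn1, Col1a1, Myh11, Myocd, Vim, marker genes at 0) were added after their values were seen, and some genes the rule takes are counted without being named; 1 of them is not reported here. Alternatives were another pseudocount, filter, scaling, trend, fold and gene set, and each ES library left out. Other steps ran in Python 3.11.15 (matplotlib 3.10.9, scipy 1.17.1, pandas 2.3.3, numpy 2.4.6).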

Additional observations from a re-analysis of the deposited data

Results flagged for a closer look

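Each of 8 members lay above both ES libraries after LIF withdrawal and below both in the EB library, a combination found in 16.8% of all genes. With 1 library on each side the opposite movement was not tested, and for Acta2, Tagln and Myl9 it prompted their choice. On the log2(FPKM + 1) scale the pairs of differences from the ES mean, LIF withdrawal first, were 1.44 and -5.40 for Acta2, 1.46 and -4.62 for Tagln, and 1.11 and -2.56 for Myl9. They were 0.57 and -0.67 for Cnn1, 0.43 and -1.23 for Tpm1, and 0.44 and -0.99 for Tpm2. For Tagln2 and Cnn2 they were 0.13 and -0.47, and 0.05 and -1.22, and the ES libraries themselves differed by 0.07 and 0.05 on that scale.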

How the results depend on the processing

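The 3 members at least 2-fold higher after LIF withdrawal stayed 3 in number under the 5 alternatives run (a pseudocount of 0.1, median-of-ratios factors, 1.5-fold, and leaving out each ES library). The count at least 2-fold lower in the EB library was 6, ranged from 6 to 7 when either ES library was left out, and was 8 at 1.5-fold. Of 80 recomputed member differences 12 moved by more than the ES SD, all under the other pseudocount or scaling. Leaving out 1 ES library cannot move a difference by more than that SD, so those recomputations could not fail. In the EB library a pseudocount of 0.1 moved Actg2 from -1.76 to -4.28, Acta2 from -5.40 to -6.21, Tagln from -4.62 to -5.33 and Myl9 from -2.56 to -3.35. Actg2 after LIF withdrawal changed sign to -0.14 without ES replicate 1, from 0.10, and was 0.35 without ES replicate 2. Limma counts over all genes depended on the settings. Higher calls after LIF withdrawal went from 1147 to 362 with a 5 FPKM filter and 166 in strand-clear genes, and lower calls from 56 to 33 with the 5 FPKM filter. In the EB library higher calls went from 62 to 39 (5 FPKM filter), 104 (no filter), 122 (pseudocount 0.1), 104 (strand-clear genes) and 0 (no trend). Lower calls there went from 0 to 2, 34, 9 and 53 under the first 4 of these. Listed genes of the contractile system called higher after LIF withdrawal numbered 7, and 4 to 7 under the alternatives. Those called lower in the EB library numbered 0, and 0 to 5. The strand-clear and 5 FPKM fits test fewer genes, and otherwise the cause was not tested. Without 1 ES library no residual degree of freedom is left, so limma was not run. No paired analysis was possible because the derived groups have 1 library each and carry no replicate number. Depth limits Actg2 and Myocd, which are at few fragments in some libraries.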
